A study of Mus musculus with 3 samples.

Results

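The regions described here are 290 sites at the ends of mouse genes where a peak of the zinc finger protein ZFP410 was listed in untreated brown preadipocytes and not in the same cells after induction of differentiation. They are 290 of the 3126 peaks of the untreated ZFP410 list on chromosomes 1 to 19 and X, and of the 725 of these with a summit within 1 kb of the first or last base of a protein-coding gene. The sites were chosen by the peak calls themselves: a peak of the untreated list that shared no base with any peak of the induced ZFP410 list or of the IgG list. Absence from the induced list is therefore what chose them and is not a result.

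The data are CUT&Tag peak lists from 3 libraries of genomic DNA, in which an antibody holds a transposase at the bound protein and the enzyme tags the DNA around it. The first library used a ZFP410 antibody on brown preadipocytes kept 3 days in brown adipocyte differentiation medium (induced), the second the same antibody on untreated cells, and the third IgG on untreated cells. All cells were Lin-CD29+CD34+Sca1+ preadipocytes sorted from male C57BL/6 mice, and how many animals or cultures stand behind a library is not given in the sources used here. Each group held 1 library, so no difference below has a replicate check or a test, and intervals cover counting error only. Peak lists hold no expression values, so the labelled cell type could not be checked against its markers.

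ZFP410 is best known from work in other cells as an activator of Chd4, the gene of a chromatin remodelling ATPase, where it binds clusters of its own motif. The transposase of CUT&Tag also reaches open promoters readily, whatever the antibody. Brown preadipocytes stop dividing and take up a fat cell programme when they differentiate, so genes of growth control, stress and adipogenesis were among the gene lists looked at.

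The induced list held 7475 peaks, the untreated list 3256 and the IgG list 480. The fold and p-value of each peak returned the whole number of fragments at its summit and the local background, and the genome-wide background was 0.246 fragments in the induced, 0.11 in the untreated and 0.0231 in the IgG library. A site of equal enrichment would thus hold 2.24 times as many fragments in the induced as in the untreated library. At the genome-wide background 4 fragments reached the weakest p-value of the induced list, 3 that of the untreated list and 2 that of the IgG list. These are the needed numbers below, and other demands of the caller on a peak were not modelled. None of the 725 untreated gene-end peaks overlapped an IgG peak (0 of 725, which allows up to 0.527%, 95% Wilson). The IgG library says little about these sites, since the median one would hold only 0.839 fragments there, and only 4 of 290 would reach 2.

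Promoter sequences are shown for the 6 sites with most summit fragments whose summit lay in a promoter window, because they show what kind of DNA carried the strongest sites, and for Zfp420, the gene whose promoter held the core of the ZFP410 motif. They are RefSeq sequences of GRCm38.p6 (the coordinates of mm10), 5′ to 3′ along the gene, each with 250 bases before the start and 50 from the start on. Capitals mark any of 11 motif words searched on both strands, which are given in turn. The core of the ZFP410 motif was searched as CATCCCATA and the word of ETS factors as CCGGAAG. For the factor NF-Y the search used CCAAT, and for Sp factors it used GGGCGG. The cyclic AMP response element was TGACGTCA, while the E-box was read as CACGTG. Sites of AP-1 were sought as TGAGTCA, and the TATA box was sought as TATAAA. The words of YY1, NRF1 and C/EBP were AAGATGGCG for the first, GCGCATGCG for NRF1 and TTGCGCAA for C/EBP. Matches that overlap run together.
Ubr4, chr4:139380409-139380708, strand plus: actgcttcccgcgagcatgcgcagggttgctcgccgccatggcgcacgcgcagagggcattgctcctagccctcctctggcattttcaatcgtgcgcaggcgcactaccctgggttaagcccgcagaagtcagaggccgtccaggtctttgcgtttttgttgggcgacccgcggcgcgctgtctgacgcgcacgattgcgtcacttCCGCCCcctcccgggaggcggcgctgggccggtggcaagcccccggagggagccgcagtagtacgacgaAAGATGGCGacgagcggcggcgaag
Ap5s1, chr2:131210110-131210409, strand plus: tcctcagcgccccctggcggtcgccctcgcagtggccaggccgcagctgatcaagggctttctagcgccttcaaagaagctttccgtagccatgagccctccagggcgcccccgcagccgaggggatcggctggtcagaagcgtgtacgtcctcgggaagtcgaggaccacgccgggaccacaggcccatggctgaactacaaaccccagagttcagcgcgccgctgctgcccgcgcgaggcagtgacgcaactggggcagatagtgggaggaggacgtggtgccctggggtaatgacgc
Dusp6, chr10:99262981-99263280, strand plus: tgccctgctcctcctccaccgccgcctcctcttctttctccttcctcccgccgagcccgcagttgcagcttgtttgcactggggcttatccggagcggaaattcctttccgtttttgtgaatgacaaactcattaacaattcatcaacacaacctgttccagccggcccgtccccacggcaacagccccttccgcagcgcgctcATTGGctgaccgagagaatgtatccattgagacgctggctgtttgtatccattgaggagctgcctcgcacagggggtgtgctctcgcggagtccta
Ovca2, chr11:75178759-75179058, strand minus: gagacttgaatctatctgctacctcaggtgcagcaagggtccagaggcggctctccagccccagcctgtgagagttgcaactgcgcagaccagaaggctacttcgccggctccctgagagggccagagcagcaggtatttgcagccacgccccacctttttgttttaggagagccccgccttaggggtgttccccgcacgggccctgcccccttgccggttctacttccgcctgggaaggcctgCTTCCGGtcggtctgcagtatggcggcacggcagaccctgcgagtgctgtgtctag
Map2k7, chr8:4238490-4238789, strand plus: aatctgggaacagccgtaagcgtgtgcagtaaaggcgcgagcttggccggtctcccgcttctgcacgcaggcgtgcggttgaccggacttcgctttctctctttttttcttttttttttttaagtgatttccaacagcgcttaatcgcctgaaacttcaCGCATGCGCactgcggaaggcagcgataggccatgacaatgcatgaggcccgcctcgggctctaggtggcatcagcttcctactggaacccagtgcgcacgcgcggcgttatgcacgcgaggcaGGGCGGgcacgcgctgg
Dnajc13, chr9:104262881-104263180, strand minus: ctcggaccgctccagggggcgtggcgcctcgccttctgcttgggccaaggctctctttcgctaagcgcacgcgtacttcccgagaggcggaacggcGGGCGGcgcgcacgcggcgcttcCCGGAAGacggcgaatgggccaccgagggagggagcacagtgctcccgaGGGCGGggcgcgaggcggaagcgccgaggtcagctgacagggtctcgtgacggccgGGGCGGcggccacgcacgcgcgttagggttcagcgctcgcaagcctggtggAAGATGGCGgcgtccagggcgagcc
Zfp420, chr7:29859762-29860061, strand plus: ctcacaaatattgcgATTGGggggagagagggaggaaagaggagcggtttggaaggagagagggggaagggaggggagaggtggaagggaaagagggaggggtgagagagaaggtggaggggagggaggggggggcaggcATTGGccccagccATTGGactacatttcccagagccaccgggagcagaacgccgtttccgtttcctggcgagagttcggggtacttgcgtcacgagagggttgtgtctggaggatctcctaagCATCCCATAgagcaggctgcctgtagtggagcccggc

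Counted from the first printed base, the untreated summit fell on base 67 of the Ubr4 window, 160 of Ap5s1, 295 of Dusp6, 144 of Ovca2, 232 of Map2k7 and 158 of Dnajc13. The Zfp420 summit lay 107 bp downstream of the start, outside the printed window. None of the first 6 windows held the ZFP410 core, and Ap5s1 held none of the 11 words. No match says only that these letters are absent from this window.

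The strongest site lay at the start of Ubr4, which encodes a very large ubiquitin ligase that recognises N-terminal degradation signals. Its peak, at 139380366 to 139380643 on chromosome 4, held 12 fragments at a local background of 0.11, and its summit was 184 bp upstream of the start printed above. At equal enrichment 26.9 fragments were expected in the induced library (13.9 to 47), where 4 were needed, against the 12 counted in untreated cells. The nearest induced summit was 53192 bp away and held 7 fragments. The expected number thus stood well above the number needed for an induced peak. Both numbers were scaled from the untreated library at a site chosen for its untreated peak. The induced background at the site was not measured.

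Setd5, a chromatin gene with a SET domain, also had 12 fragments (113076338 to 113076719 on chromosome 6), but at a raised local background of 0.847. An induced peak of 13 fragments had its summit 594 bp away, at the same gene end, so the gene was listed in both libraries. The 2 sites with equal fragments therefore differed in what lay beside them: Ubr4 had no induced peak at its ends or inside it, and Setd5 had one close by.

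Btg1, an antiproliferative gene of the BTG/TOB family, had 10 fragments at its start (96616450 to 96617090 on chromosome 10), in a peak of 641 bp that was the widest of the 290. For the induced library 22.4 fragments were expected (10.7 to 41.2) and 4 were needed. An induced peak of 5 fragments lay 5084 bp away inside the gene. Ap5s1, a subunit gene of the AP-5 trafficking adaptor, had 10 fragments as well (131210084 to 131210269 on chromosome 2). Its local background, 1.23, was the highest of the 290, and 11 fragments would have been needed in the induced library, which is inside its interval of 10.7 to 41.2.

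Sites of signalling genes included 4 of the 37 listed genes of the MAP kinase pathway, Dusp6, Map2k7, Dusp4 and Map2k3. That is 10.8%, where 331 of 21631 coding genes, or 1.53%, had such a site. This list and those below were chosen with earlier results of these data known, so their shares are descriptions only. A gene-end peak that overlapped an induced one was found at 3 of the 37, and at 496 of the 21631. Any induced gene-end peak was found at 9 of the 37 and 1846 of the 21631. Peaks at these genes were thus not particular to the untreated list alone. Dusp6, whose product dephosphorylates ERK, had 8 fragments 44 bp downstream of its start (99263062 to 99263283 on chromosome 10) at a background of 0.809. The nearest induced summit was 364927 bp away, but 9 fragments would have been needed, within the interval of 7.74 to 35.3. Map2k7, which encodes a kinase that activates JNK, had 7 fragments 19 bp upstream of its start (4238661 to 4238801 on chromosome 8) at the genome-wide background. There 15.7 were expected (6.31 to 32.3) and 4 needed, and the nearest induced summit lay 72516 bp off. Dusp4, a nuclear MAP kinase phosphatase gene, had 4 fragments, with the nearest induced summit 217011 bp away. Map2k3, a kinase gene of the p38 branch, had 3, with an induced peak of 7 fragments 283 bp away at the same end. Map2k7 was thus the MAP kinase site whose expected number stood furthest above the number needed, and Map2k3 was listed in both libraries a short step apart.

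Protein degradation and folding genes made up several more. Of 38 listed ubiquitin ligase genes 3 had a site (7.89%, beside 1.53% of all coding genes), Ubr4, Ubr2 and Keap1. Ubr2, of the same N-degron recognition family as Ubr4, had 5 fragments 106 bp upstream of its start, and its nearest induced summit was 305744 bp away. Keap1, the adaptor gene that marks NRF2 for degradation, had 4 fragments over a background of 0.323, where 6 would have been needed. Gm4275 and Ate1 shared a site of 7 fragments (130519488 to 130519872 on chromosome 7), 300144 bp from an induced summit. Ate1 encodes the arginyltransferase that makes N-degrons. Of 26 heat shock and chaperone genes 3 had a site (11.5%, beside 1.53% of all coding genes), Hsp90aa1, Stip1 and Hspa4. A gene-end peak that overlapped an induced one was found at 8 of the 26, and at 496 of all 21631 coding genes. Hsp90aa1, which encodes the inducible cytosolic HSP90, had 5 fragments 57 bp from a gene end (110696291 to 110696551 on chromosome 12), and its nearest induced summit was 104787 bp away. The Stip1 site, 5 fragments at 962 bp upstream of the start, stood beside the fourth-ranked peak of the induced list, at the same cochaperone gene, with 104 fragments at a summit 796 bp away. The Hspa4 site held 4 fragments with an induced peak of 6 fragments 261 bp away. Of the 3 chaperone genes only Hsp90aa1 was therefore without an induced gene-end peak.

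The other sites with most fragments belong to no list, and their order here follows no count of a gene group. Dnajc13, an endosomal J-domain protein gene, had 7 (104262872 to 104263220 on chromosome 9), and an induced peak of 13 fragments lay 61582 bp away inside the gene. Cct7, a subunit of the TRiC chaperonin, shared a site of 7 fragments with Pradc1 (85451457 to 85451666 on chromosome 6), 117812 bp from an induced summit. The Golgi SNARE gene Gosr2 had 7 and the retromer-associated Snx3 had 6, at 268826 and 224350 bp from an induced summit. Klhl21, an adaptor gene of a mitotic ubiquitin ligase, had 7 at a background of 0.77, and its induced peak of 10 fragments lay 498 bp away.

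Iars2, the mitochondrial isoleucyl-tRNA synthetase gene, shared a site of 7 fragments with Bpnt1 (185328978 to 185329364 on chromosome 1), and an induced peak of 5 fragments lay 9425 bp away inside one of these genes. Ndufa10, a subunit gene of complex I, had 7 fragments 28 bp downstream of its start at a background of 0.565, and Mrpl58, of the mitochondrial ribosome, had 7 near its last base at 0.575. Both needed 7 fragments in the induced library, within their interval of 6.31 to 32.3.

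The remaining sites of 7 or 8 fragments were of mixed function. Stab2, a scavenger receptor gene for hyaluronan, had 8 fragments near its last base (86839965 to 86840531 on chromosome 10), and its nearest induced summit was 134652 bp away. Ovca2, a hydrolase gene, had 7 at 107 bp upstream of its start (75178872 to 75179124 on chromosome 11), where 15.7 were expected and 4 needed, 52889 bp from an induced summit. Mpv17l and Pdxdc1 shared a site of 7, Eapp, whose product binds E2F factors, had 7 with an induced peak of 87 fragments and a fold of 6.67 at 14936 bp, and Adap2, an ARF GTPase-activating protein gene, had 7 at a background of 0.462. The other 15 sites with 6 or more fragments, Snx3 among them, held 6 each. They included E2f5, a cell cycle repressor gene of the E2F family, and Gadd45a, a growth arrest gene induced by DNA damage, both picked out after their values were seen. Their nearest induced summits were 506312 and 28350 bp away, and both had 13.4 fragments expected (4.93 to 29.3) and 4 needed.

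Of 45 adipogenic and lipid storage genes 2 had a site (4.44%, beside 1.53% of all coding genes), Cebpd and Klf5, both early transcription factors of adipogenesis. Cebpd had 4 fragments 180 bp from a gene end (15887319 to 15887707 on chromosome 16), where 8.96 were expected in the induced library (2.44 to 22.9) and 4 needed. Klf5 had 3 (99299216 to 99299347 on chromosome 14), where 6.72 were expected (1.39 to 19.6) and 4 needed. The threshold lay inside both intervals, so at this depth their absence from the induced list is within counting error. The nearest induced summits were 163487 and 84562 bp away. Of 39 cell cycle genes 2 had a site (5.13%, beside the same 1.53%), Btg1 and the replicative helicase gene Mcm5, with 5 fragments 32 bp upstream of its start. Of 19 preadipocyte and extracellular matrix genes Col1a1, a collagen type I gene, had one of 4 fragments 791 bp from a gene end. Brown thermogenic, NuRD, m6A, prostaglandin and cAMP signalling and tissue-restricted genes had 0 of 30, 15, 24, 31 and 28. These shares rest on 0 to 4 genes each, and no test of them was made. Ubr4, Btg1, Map2k7, Cebpd and Klf5 were preset by name, so a share above 1.53% in their lists is no independent result. An induced gene-end peak was found at 6 of the 38 ubiquitin ligase genes and 15 of the 26 heat shock and chaperone genes. For cell cycle, adipogenic, and preadipocyte and matrix genes the counts were 6 of 39, 4 of 45 and 0 of 19. Over all 21631 coding genes the count was 1846.

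Across all 290 sites the median summit held 4 fragments (quartiles 3 and 5, range 3 to 12), against 5 (4 and 7, 3 to 27) at the 435 untreated gene-end peaks that overlapped an induced peak. Of the 290, 100 held 3 fragments, 95 held 4, 61 held 5 and 34 held 6 or more. The median width was 187 bp against 236 bp, and the median fold in the authors' list 4.5 against 5.41. A local background at the genome-wide level was found at 79.3% of the 290 and 72% of the 435. The caller's −log10 q reached 2 at 178 of the 290 (61.4%) and 377 of the 435 (86.7%). The sites thus had fewer fragments, narrower peaks and lower fold and −log10 q than the gene-end peaks with an induced partner. The rule works through the calls, so that is a description and not a finding.

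**Figure D1:**
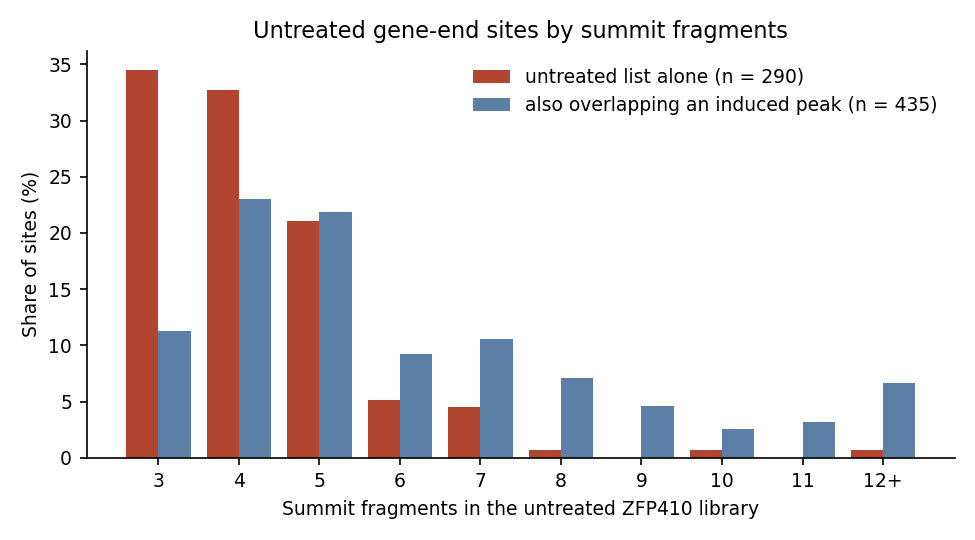
Share of untreated gene-end sites (y axis, percent) by summit fragments in the untreated ZFP410 library (x axis), for the 290 sites of the untreated list alone and the 435 that overlap an induced peak. Sites with 3 or 4 fragments make up 34.5% and 32.8% of the 290, against 11.3% and 23% of the 435.

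Gene-end peaks were missing from the induced list less often when they were stronger. The share without an induced overlap was 67.1% of gene-end peaks with 3 fragments (100 of 149), 48.7% with 4, 39.1% with 5, 24.6% with 6 or 7 and 5.41% with 8 or more (6 of 111, 95% interval 2.5 to 11.3). Over all gene-end peaks it was 40% (36.5 to 43.6), where 52.6% of all 3077 untreated peaks on these chromosomes free of IgG overlapped no induced peak. Peaks away from gene ends gave 56.5% (54.5 to 58.5), and at the same numbers of fragments 89%, 68%, 48.6%, 30.2% and 9.86%. In each of these classes the gene-end share was the lower one. The difference was not tested, because peaks of the same library are not replicates and the intervals cover counting error only.

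Equal enrichment would have brought all 290 sites to the number needed for an induced peak, with a median of 8.96 expected fragments. The 95% interval of the untreated number, scaled to the induced library, lay wholly at or above the needed number at 24 sites, or 8.28% (5.62 to 12). Over all 1620 peaks of the untreated list alone the share was 9.63%, so the gene-end sites did not stand out. At the other 266 sites the absence was within counting error of the untreated number. The interval leaves out the counting error of the induced library, so the 24 sites are not thereby beyond counting error. The sites were chosen for an untreated peak, so their fragment numbers lean high and the expected numbers with them. Of the 24 sites, 22 had no induced summit within 1 kb, and 18 had genes with no induced peak at either end or inside. Over all 290 sites the numbers were 251 and 220 (75.9%), so the 24 were similar to the rest in this.

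**Figure D2:**
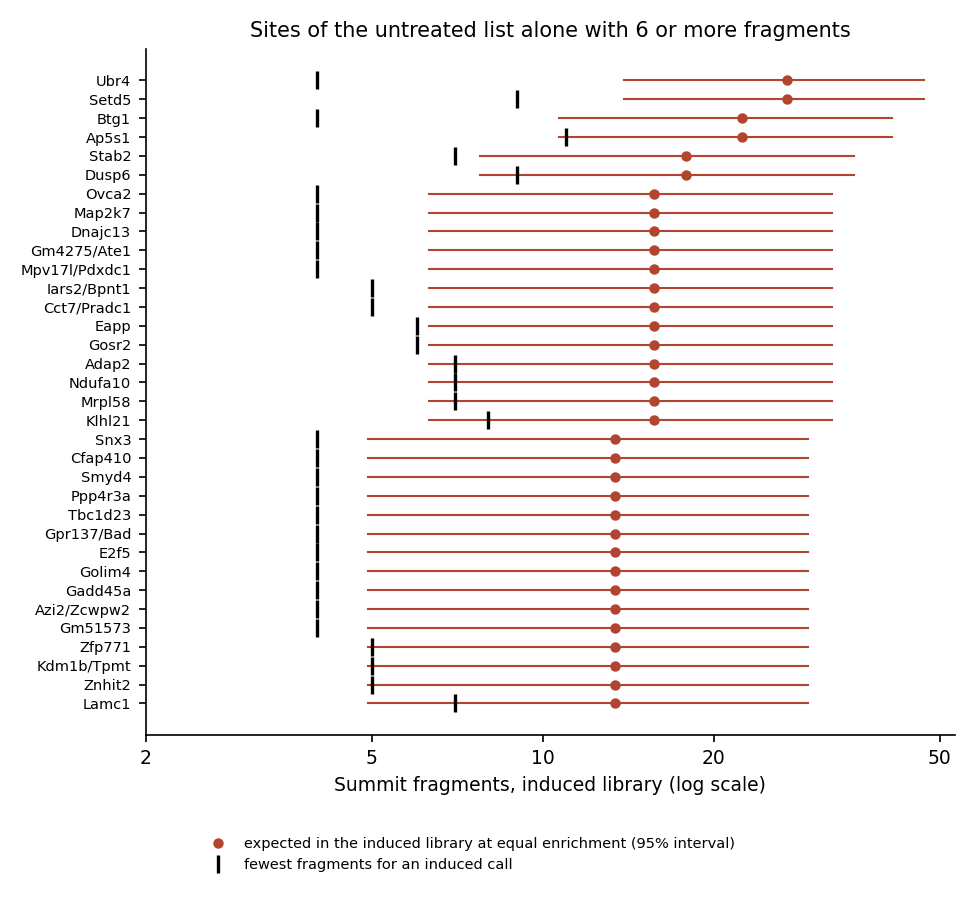
Summit fragments that equal enrichment would give in the induced library, for the 34 sites of the untreated list alone with 6 or more fragments. Points stand on a log x axis, lines are 95% counting intervals, and black ticks are the fewest fragments needed for an induced peak. Sites with most fragments are at the top. At 24 of them, Ubr4 and Map2k7 included, the tick lies left of the line.

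Distances to the nearest induced summit fell into a near and a far group. The median was 57107 bp (quartiles 14464 and 172721, range 62 to 1381961), and 39 sites (13.4%, 10 to 17.9) had an induced summit within 1 kb. Only 13 more lay between 1 and 5 kb, while 102 sites (35.2%) were over 100 kb away. Among peaks of the untreated list alone away from gene ends 6.54% (5.33 to 8) had an induced summit within 1 kb.

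**Figure D3:**
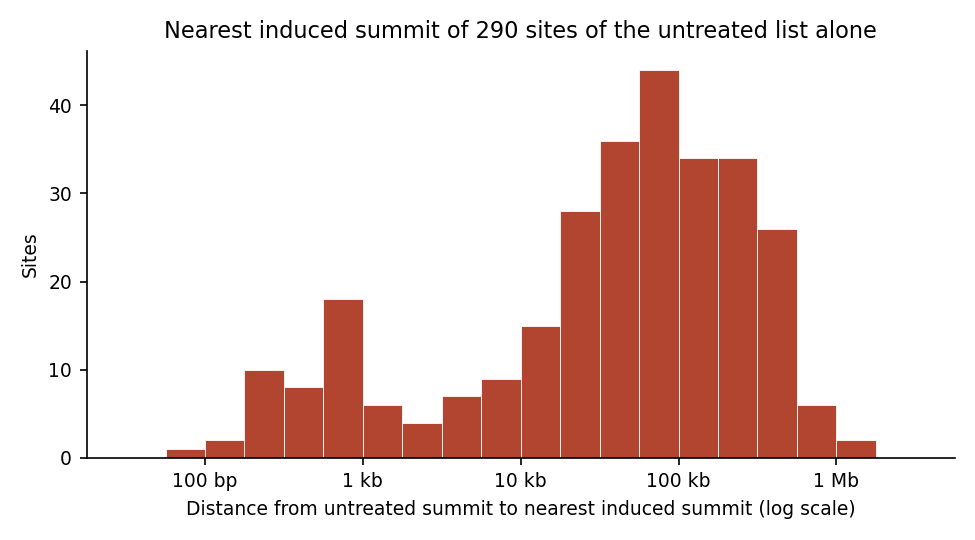
Number of sites (y axis) by distance from the untreated summit to the nearest induced summit (x axis, log scale) for the 290 sites. A smaller group lies at up to 1 kb (39 sites) and a larger one around 10 kb to 1 Mb, with a median of 57107 bp.

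The nearest induced peaks were at Arpc3, an Arp2/3 complex gene, with the summit 62 bp away and 1 bp between the peaks, and at Abcf2, an ABC family ATPase gene, with 126 bp between summits. They held 6 and 9 induced fragments beside untreated sites of 4 and 3. Zfp978, a zinc finger gene, followed at 147 bp, the site shared by the histone demethylase gene Kdm1b and Tpmt at 185 bp and the cytoskeletal Septin7 at 192 bp, with 5, 8 and 4 induced fragments beside 3, 6 and 5. Of the 39 near sites 21 lay within 200 bp of the edge of an induced peak, and 9 had another untreated summit within 1 kb. Of the 39, 34 belonged to a gene with an induced gene-end peak, and 5 (Zfp978, S100a10, LOC102634078, Mfap3l and Tgif1) did not. Over all 290 sites, 42 belonged to a gene with an induced gene-end peak and 48 to a gene with an induced summit inside it. The genes of 220 sites (75.9%, 70.6 to 80.4) had neither. Counted by gene, 48 of the 331 genes at these sites had an induced gene-end peak, and 1846 of all 21631 coding genes did. Most coding genes thus had no induced gene-end peak. No share over all genes was worked out for induced summits inside a gene.

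The furthest induced summits were 1381961 bp from the site at Dnajb9, an ER cochaperone gene, 1290519 bp from Rwdd1, 904088 bp from the predicted gene Gm10220, 845040 bp from Lmnb1, the lamin B1 gene, and 786919 bp from the sialyltransferase gene St3gal6. These sites held 5, 3, 3, 4 and 4 fragments. None of these 5 sites was among the 34 with 6 or more fragments.

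The 290 sites touched 331 coding genes, since 44 sites (15.2%) lay within 1 kb of the ends of more than 1 gene. Only 4 genes had more than 1 site, Bnip2, Fam104a, D11Wsu47e and Gm51573, and 12 genes also had a gene-end peak that overlapped an induced one. The promoter table gave a strand for the gene of 245 sites: at 221 the summit was near the start and at 24 only near the last base. For the 435 sites with an induced overlap the numbers were 346 and 17. Gene ends were close in both sets, at a median of 205 bp against 177 bp.

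Relative to the nearest start, summits of the untreated list alone lay further downstream. Of 211 sites within 1 kb of a start in the table, 122 (57.8%, 51.1 to 64.3) had their summit at or downstream of it, against 131 of 338 (38.8%, 33.7 to 44) of the sites with an induced overlap. The median summit lay 47 bp downstream of the start, against 60.5 bp upstream of it (-60.5). Limited to sites of 3 to 5 fragments, the shares were 58.4% (51.2 to 65.2) and 44.8% (38 to 51.9), whose intervals overlap. The side of the start was no part of the rule. However, a site had to share no base with an induced peak, so its position was not independent of the rule. The difference is a description and was not tested, since sites of 1 library are not replicates.

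**Figure D4:**
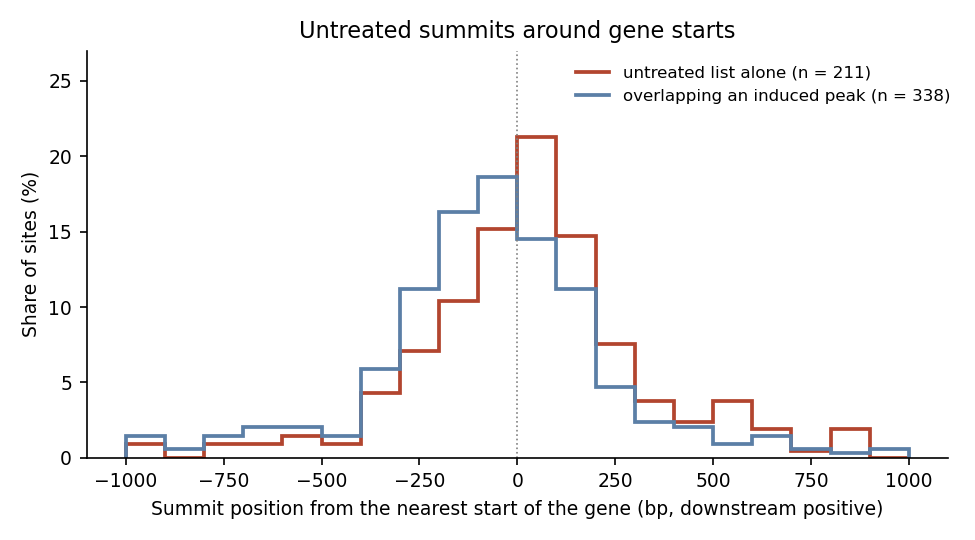
Share of sites (y axis, percent) by position of the untreated summit from the nearest start of the gene in 100 bp steps (x axis, downstream positive), for 211 sites of the untreated list alone and 338 that overlap an induced peak. The highest step is 0 to 99 bp for the untreated list alone (21.3%) and -100 to -1 bp for the others (18.6%).

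The promoters of both sets were richer in GC and CpG than coding promoters in general. The median GC content was 63.3% for 268 promoters with a start within 1 kb of one of the 290 sites, 63.8% for 426 promoters of the sites with an induced overlap, and 56.7% for 21045 promoters of coding genes. The median ratio of observed to expected CpG was 0.82, 0.852 and 0.574 in the same order. The Sp word was found in 67.2% (61.3 to 72.5), 76.1% (71.8 to 79.9) and 46.7% of these promoters and the ETS word in 23.5%, 22.8% and 11.7%. The ZFP410 core was found in 1 of 268 promoters, that of Zfp420, in 3 of 426 and in 30 of 21045 (0.373%, 0.704% and 0.143%). In the narrower sets whose window itself held the untreated summit, it was found in 0 of 92 and 2 of 201. The TATA word stood at 6.72%, 6.34% and 12.7%. Except in the narrower sets, these values cover the 211 of the 290 sites with a start in the promoter table within 1 kb. All are descriptions with no test.

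Some sites stood close to the limits of the rule. The largest distances to a gene end inside the window were 995 bp at Trim69 and 991 bp at Pygo1, with 3 fragments each, and the smallest outside it were 1003 bp at Klf10 with 7 fragments and 1005 bp at Gas1 with 3. Arpc3 and Flvcr1 were 1 bp short of touching an induced peak, while Eef2 with 4 fragments and Junb with 9 overlapped one by 2 and 9 bp and were left out.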

How the data were processed

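Per the submitters' notes on processing, Bowtie2 2.2.6, Picard and MACS2 2.1.1 were used with mm10. Each library has 1 deposited peak list in the MACS2 format, and peak names carry a q threshold of 0.1. For each peak the authors deposited a score, a fold over the local background, the −log10 of p and q, and a summit. How duplicates were handled and what control the caller had was not stated. Folds, p and q were compared directly only within a list. Backgrounds solved from them, and the lowest −log10 p of the induced list, were also used between lists for expected and needed numbers.

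Summit fragments and local background were solved from fold and −log10 p with Python 3.11.15 and scipy 1.17.1. A solution was found for all 3256 untreated, 7474 of 7475 induced and all 480 IgG peaks (gap under 0.001). The test on simulated data used the same formula, so it checked the solving and not the formula itself. Expected induced fragments are untreated ones times 2.24, with exact Poisson 95% intervals. The needed number is the fewest fragments reaching the lowest −log10 p of the induced list, at the local background times 2.24. Shares have Wilson intervals. Groups came from the sample labels.

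Genes came from RefSeq GRCm38.p6. Starts and strands came from its promoter table, which matched 282 of the 331 genes. Exons, introns and UTRs were not analysed here. Named were the 20 sites with most fragments, the 5 nearest to and 5 furthest from an induced summit, sites of fixed gene lists and 6 preset genes. A few others were chosen after their values were seen. Sites and lists were chosen with earlier results of these data known.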

Additional observations from a re-analysis of the deposited data

How the results depend on the processing

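Number and share of sites rest mostly on what counts as an overlap and on the weakest untreated peaks. The number of sites was 501 (69.1% of untreated gene-end peaks) where an overlap had to cover 50% of both intervals, 178 (32.1%) at an untreated −log10 q of at least 2, 85 (23.8%) at a fold of at least 5 and 95 (24.9%) at 5 or more fragments. Counting induced peaks within 500 bp as overlapping gave a share of 35.6%. The median distance to an induced summit became 1170 bp with the stricter overlap. The share with an induced summit within 1 kb was 49.5% there, 6.69% with induced peaks within 200 bp counted as overlapping and 2.71% within 500 bp. Other settings (windows of 500 bp and 2 kb, a stricter induced list, IgG overlaps kept, all chromosomes, all gene classes) moved the number of sites by less than 1.5 times, between 225 and 368. Scaled by the depth ratio of 2.01 the median expected number was 8.04. No paired analysis was possible because each group held 1 library, and no library could be left out. Most sites held 3 to 5 fragments, which limits every statement about a single site.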

Other observations

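Several of the motif words differed in share between narrower sets of promoters. The YY1 word was singled out after its values were seen among 11 words. Where the promoter window itself held the untreated summit, the YY1 word AAGATGGCG was found in 9 of 92 promoters of the untreated list alone (9.78%, 95% Wilson interval 5.23 to 17.6). For sites that overlapped an induced peak it was found in 4 of 201 (1.99%, 0.777 to 5), and in 1.84% of all coding promoters. Over the wider set of promoters with a start within 1 kb of a site the shares were 3.73% and 2.58%. The 9 promoters were those of Ubr4, Dnajc13, Maml1, Zfp292, Plod3, Mcm5, Arf1, Hspbp1 and Otub1, with 12, 7, 5, 5, 5, 5, 4, 4 and 3 summit fragments. In 6 of them, Ubr4, Dnajc13, Maml1, Zfp292, Hspbp1 and Otub1, the word read along the gene and began 12 to 26 bases downstream of the start. The nearest induced summits were 11032 to 61582 bp away. The E-box word stood at 15.2% (9.29 to 23.9) against 8.96% (5.74 to 13.7) in the same sets. Other words were lower in the untreated list alone. The Sp word stood at 71.7% against 82.1% and the cyclic AMP response element at 4.35% against 8.46%. AP-1 stood at 2.17% against 5.47% and TATA at 3.26% against 6.97%. The NF-Y, NRF1, C/EBP and ZFP410 words were lower too, and the ETS word was close (26.1% and 25.9%). A word match is not a bound site, and none of these differences was tested.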
